A study of Mus musculus with 2 samples.

Results

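Blood vascular endothelial cells line arteries, capillaries and veins and were examined here in aneurysmal abdominal aorta. The aneurysms followed infusion of PPE, porcine pancreatic elastase, which breaks down elastic fibres. They were chosen by their transcripts. A kept cell was taken as blood vascular endothelial when it held a unique molecular identifier (UMI, a count of 1 captured transcript) of at least 3 of the genes Pecam1, Cdh5, Kdr, Ptprb, Tie1, Cldn5, Egfl7, Emcn and Ecscr. It also had to hold fewer than 2 of the lymphatic genes Prox1, Flt4, Mmrn1 and Reln, no UMI of the platelet genes Itga2b and Ppbp, and less than 0.3% of its UMIs from the fibroblast collagen gene Col3a1. This gave 185 of 16403 kept cells.

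Controls (WT library) were C57BL/6J mice, and the Gsdme-KO library was made from mice lacking Gsdme in the whole body. Both groups had received PPE, so no aorta without aneurysm induction was part of the comparison. Gsdme encodes gasdermin E, a protein that caspase 3 cleaves and that then perforates the cell membrane. The strain behind the deletion, the age and sex of the mice, the time after PPE and the number of mice pooled per library were not given in the sources used here. There was 1 library per group. Every interval below therefore covers counting error alone, no test was possible, and the genotype cannot be told apart from the mouse, the dissection or the library.

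The WT library held 80 of these cells among 7619 kept cells (1.05%, 95% exact binomial interval 0.833 to 1.31). The Gsdme-KO library held 105 among 8784 (1.20%, 0.979 to 1.45), a ratio of shares of 1.14 (0.843 to 1.54). The cells carried 453895 UMIs in WT and 803571 in Gsdme-KO, with medians of 4287 and 6187 UMIs and of 2007 and 2497 genes per cell. Their median share of mitochondrial UMIs was 4.84% and 5.75%. The libraries shared 73 cell barcodes, and no barcode was a blood vascular endothelial cell in both. Gsdme itself was at 1 UMI in these cells of each library, too few to check the deletion here. Over all kept cells it was at 5.53 CPM (UMIs of a gene out of every 1e+06 UMIs summed) in WT and 2.55 CPM in Gsdme-KO.

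Endothelial cells meet blood on one face and a basement membrane on the other. They hold vascular endothelial growth factor (VEGF) receptors and VE-cadherin junctions, set vessel tone through nitric oxide, endothelin and prostanoids, and under cytokine stimulation display selectins and adhesion molecules that capture leukocytes. Arterial, capillary and venous endothelium differ in the genes they use: capillary cells carry fatty acid transporters, arterial cells carry Notch ligands, gap junction proteins and elastic fibre genes, and venous cells carry the selectins and the transcription factor Nr2f2. An elastase-treated aorta can give luminal endothelium and the small vessels of the adventitia and surrounding tissue, and these were not separated before capture.

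Genes of the rule are given as a description, since the rule fixed that the chosen cells hold them. Pecam1, an adhesion molecule of endothelial junctions, stood at 1813 CPM in WT against 1557 CPM in Gsdme-KO, and cells rich in neutrophil markers held 26.8 and 40.1 CPM of it. Cdh5, which encodes VE-cadherin, stood at 947 and 789 CPM, against 2.06 and 0.535 CPM in the neutrophil-rich cells. Other types were nearer: lymphatic cells held 861 and 1275 CPM of Pecam1 and 685 and 724 CPM of Cdh5. Cells rich in smooth muscle and pericyte markers held 566 and 177 CPM of Pecam1 and 194 and 105 CPM of Cdh5. A UMI of Cdh5 was found in 92.5% of the WT and 84.8% of the Gsdme-KO endothelial cells, and in 0.379% and 0.0943% of neutrophil-rich cells, whose median depths were 1688 and 1602.5 UMIs. The label was checked on genes outside the rule. Those with the highest level relative to all other kept cells were the water channel gene Aqp1, the adhesion receptor gene Adgrl4, the junction gene Esam, the VEGF receptor gene Flt1, the fatty acid binding protein gene Fabp4, and Cyyr1, Mmrn2, Plvap, Tinagl1 and Tspan7. Flt1 stood at 1064 and 908 CPM, against 12.9 and 13.0 CPM in all other kept cells, and a UMI of it was found in 76.2% and 78.1% of the endothelial cells. The lymphatic cells described below held 701 and 237 CPM of Flt1, with a UMI in 2 of 15 and 3 of 25 cells, and cells rich in smooth muscle and pericyte markers 280 and 132 CPM. Plvap, a gene of endothelial fenestrae, stood at 610 and 473 CPM but at 319 and 1275 CPM in the lymphatic cells, so it did not mark blood vessels alone. Clustering was not used, and no doublet caller was run.

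**Figure D1:**
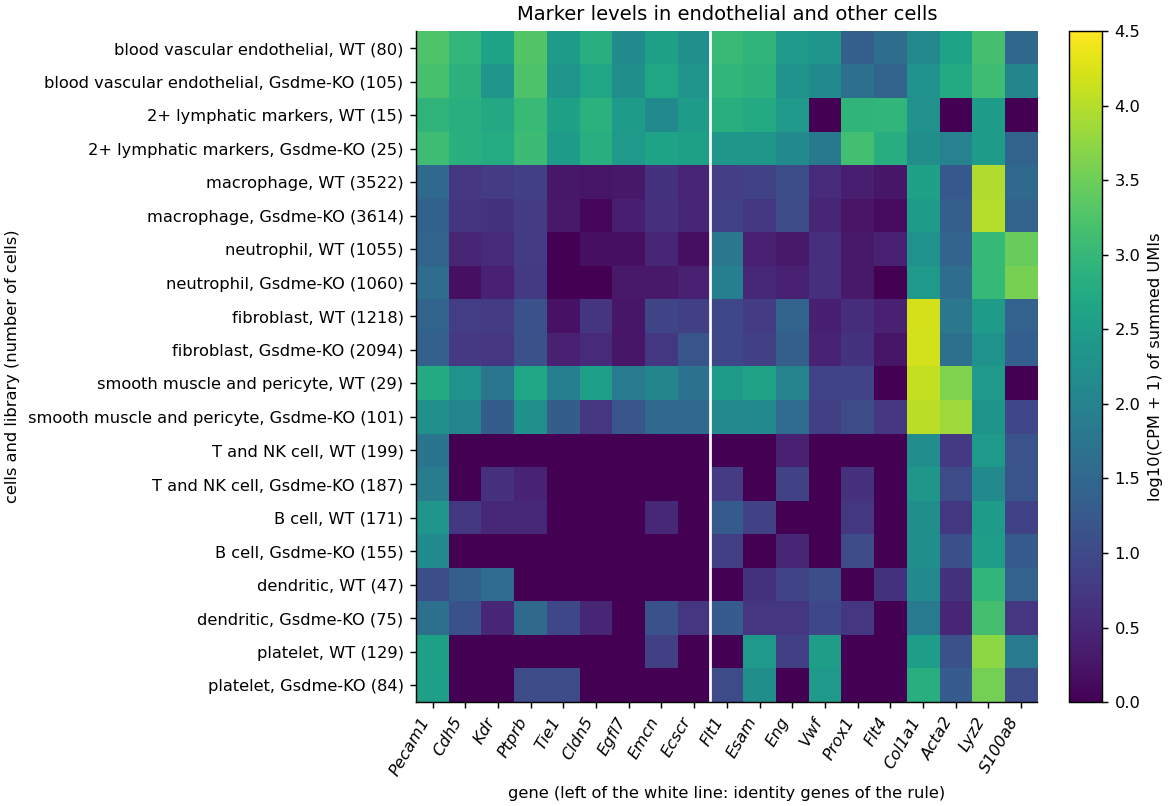
Levels of endothelial, lymphatic and other cell type markers (columns, log10 of CPM of summed UMIs plus 1, colour scale) in blood vascular endothelial cells and in cells rich in the markers of other types (rows, number of cells in brackets, WT and Gsdme-KO library apart). Endothelial genes are high in the top 4 rows, Prox1 and Flt4 are high only in the rows of lymphatic cells, and the WT cells rich in smooth muscle and pericyte markers also hold endothelial genes.

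The lymphatic limit left out 20 WT and 32 Gsdme-KO cells, the platelet limit 11 and 18, and the Col3a1 limit 4 and 4. Cells with 2 or more lymphatic markers that passed every other limit numbered 15 in WT and 25 in Gsdme-KO. They held 893 and 1372 CPM of Prox1, the regulator of lymphatic identity, against 22 and 43.6 CPM in the blood vascular endothelial cells. Vwf, the von Willebrand factor gene of blood vessel lining, was at 0 UMIs in the 15 WT lymphatic cells and at 64.1 CPM in the 25 Gsdme-KO ones. At the threshold, 15 WT and 19 Gsdme-KO cells had exactly 3 identity markers, with median depths of 1233 and 1392 UMIs and Pecam1 at 655 and 845 CPM. Cells with exactly 2 numbered 69 and 121, were deeper (8626 and 9553 UMIs) and held 109 and 87.2 CPM of Pecam1.

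RNA of other cell types was present in these cells and differed between the libraries. At least 3 of 10 macrophage markers were detected in 33 of 80 WT cells and 36 of 105 Gsdme-KO cells. All 10 macrophage markers had a UMI, and their summed level was 3236 CPM in WT against 2025 CPM in Gsdme-KO, against 19210 and 20693 CPM in macrophage-rich cells. Neutrophil markers summed to 108 and 431 CPM (12994 and 13325 CPM in neutrophil-rich cells), with 7 of 8 detected in WT and all 8 in Gsdme-KO. At least 3 of them were detected in 3 of 80 WT cells and 14 of 105 Gsdme-KO cells. Fibroblast markers summed to 604 and 993 CPM (42080 and 37683 CPM in fibroblast-rich cells), and all 9 were detected in both. Smooth muscle and pericyte markers summed to 1511 and 2452 CPM (12202 and 16816 CPM in cells rich in them), with Myocd at 0 in WT. Of the 9 T and NK cell markers, 7 were at 0 in WT, among them Cd3e and Trac, and none was at 0 in Gsdme-KO. They summed to 6.61 and 48.5 CPM, and at least 3 were detected in 0 of 80 and 4 of 105 cells. The B cell marker Ighm stood at 30.8 CPM in WT against 979 CPM in Gsdme-KO, where 1 cell held 92.0% of it. Values for key genes are therefore also given for 46 WT and 49 Gsdme-KO cells, called low-marker cells below. In these the summed markers of each of 8 other types stayed under 10% of the level in cells rich in those markers. The 8 were macrophages, neutrophils, fibroblasts, smooth muscle and pericytes, T and NK cells, B cells, dendritic cells and platelets. Lymphatic, mesothelial, adipocyte and red cell markers were not limited. The adipocyte gene Car3 still stood at 800 CPM in WT low-marker cells, against 17.5 CPM in Gsdme-KO ones. Whether markers of 2 types in 1 barcode came from a pair of cells or from free RNA cannot be told apart here.

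Across 7729 genes with at least 20 UMIs in the cells of both libraries together, 908 (11.7%) were at least 1.5-fold higher in Gsdme-KO and 1089 (14.1%) at least 1.5-fold lower. With the additional condition that the counting interval of the ratio lay on 1 side of 1, the counts were 400 (5.18%) higher and 545 (7.05%) lower. A ratio below 1 was found for 4205 of the 7729 genes, and their median log2 ratio was -0.055. These shares are the background for the lists below, in which higher or lower means at least 1.5-fold. Scaling by TMM (trimmed mean of M-values) factors moved the split to 1174 (15.2%) higher and 820 (10.6%) lower, with a median of 0.053.

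**Figure D2:**
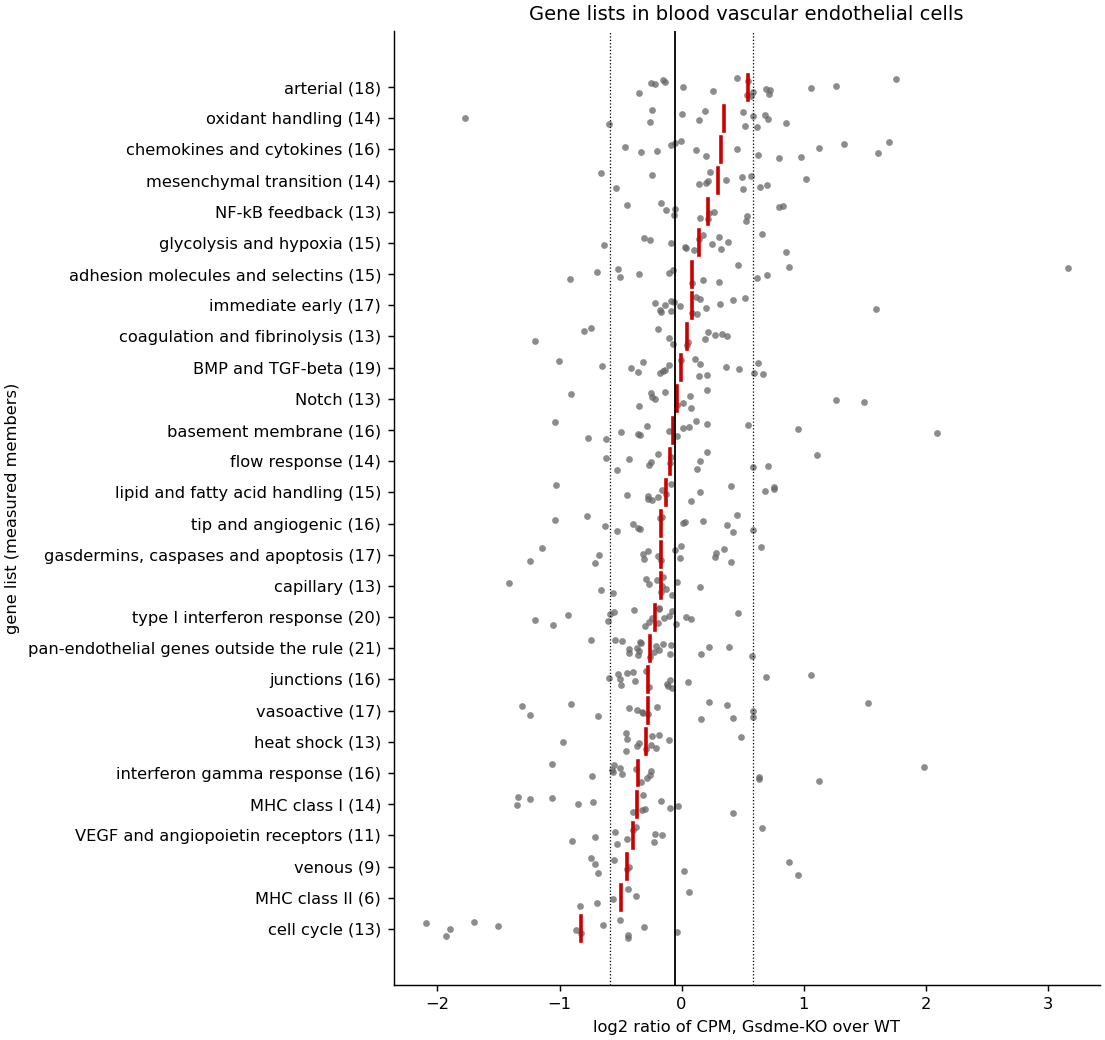
Log2 ratio of CPM, Gsdme-KO over WT, for the measured genes of each list in blood vascular endothelial cells (grey points, 1 per gene; number measured in brackets), with the list median (red bar), the median of all 7729 genes (solid line) and 1.5-fold either way (dotted lines). Arterial genes have the highest median (0.54) and cell cycle genes the lowest (-0.82).

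Of 11 measured genes of VEGF and angiopoietin signalling, 2 were lower and 1 higher in Gsdme-KO, and the median log2 ratio was -0.40. A ratio below 1 was found for 10 of the 11. Kdr encodes VEGFR2, the main signalling receptor for VEGF-A on blood vessels. It stood at 410 CPM in WT against 220 CPM in Gsdme-KO, a ratio of 0.538 (95% counting interval 0.435 to 0.664), and a UMI was found in 47 of 80 and 46 of 105 cells. Kdr was 1 of the 9 genes that chose the cells, as were Tie1 and Ptprb of this list. The counts and the median of the list include these genes and were not taken without them. The rule asks for a UMI and not a level, and the Gsdme-KO cells were deeper (medians of 6187 against 4287 UMIs). Over the 9 rule genes the summed level was 6850 CPM in WT against 5828 CPM in Gsdme-KO, and 6 had a ratio below 1. The part of depth in these ratios was not tested. Nrp2, a VEGF and semaphorin co-receptor, stood at 242 and 148 CPM (0.611, 0.468 to 0.799), and Nrp1, its relative on arterial cells, at 427 and 314 CPM (0.734, 0.606 to 0.889). Among the other receptors, Flt1, which binds VEGF-A as a decoy, had a ratio of 0.854, and the angiopoietin receptor genes Tek and Tie1 stood at 196 and 134 CPM and at 306 and 233 CPM. The ligand gene Vegfa went the other way, at 83.7 CPM in WT against 132 CPM in Gsdme-KO (1.58, 1.08 to 2.35), but its ratio was 0.605 in low-marker cells. Kdr was at 527 and 259 CPM in those cells (0.491) and Nrp2 at 321 and 185 CPM (0.578).

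Kdr lies on the minus strand of chromosome 5 (GRCm38, chr5:75932827-75978458). The 250 bases before its start are shown because Kdr had the lowest ratio among the genes that define the cells. They come from RefSeq's GRCm38.p6 annotation, chr5:75978456-75978705, minus strand, and include 3 bases of the exon in the GENCODE annotation. Capitals mark a match to the NF-kB consensus, which overlaps a KLF core (CACCC).
Kdr: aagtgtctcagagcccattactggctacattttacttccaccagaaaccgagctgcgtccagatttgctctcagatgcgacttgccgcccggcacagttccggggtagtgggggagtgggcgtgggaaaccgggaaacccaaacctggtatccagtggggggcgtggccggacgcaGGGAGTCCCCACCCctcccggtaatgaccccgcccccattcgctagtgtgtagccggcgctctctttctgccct
Among 27025 promoters of the same length, 51.3% held CACCC and 3.75% held the NF-kB consensus, on either strand. A match describes letters and not a bound site.

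Of 13 measured capillary genes, 2 were at least 1.5-fold lower in Gsdme-KO and none was 1.5-fold higher, close to the share of all genes that were lower. A ratio below 1 was found for 12 of the 13, and the median was -0.17. The most abundant were nearly level: Fabp4 stood at 4347 CPM in WT against 4838 CPM in Gsdme-KO (1.11), the fatty acid transporter gene Cd36 at 2976 and 2719 CPM (0.914), and Aqp1 at 1443 and 1366 CPM (0.947). Rbp7, a retinol binding protein gene of capillary endothelium, stood at 203 and 75.9 CPM (0.375, 0.266 to 0.523). Cd300lg, which encodes a mucin-like receptor of microvessels, stood at 324 and 205 CPM (0.634, 0.505 to 0.797). The nuclear receptor gene Pparg, a regulator of fatty acid handling outside this list, stood at 170 and 83.4 CPM (0.491, 0.349 to 0.691). Rbp7, Cd300lg and Pparg kept ratios of 0.355, 0.583 and 0.365 in low-marker cells.

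Calcrl, the receptor gene for calcitonin gene-related peptide and adrenomedullin, stood at 273 CPM in WT against 116 CPM in Gsdme-KO (0.424, 0.320 to 0.559), and at 466 and 210 CPM in low-marker cells (0.450). Of 17 vasoactive genes, 4 were lower and 2 higher, with a median of -0.28. Npr3, the clearance receptor gene for natriuretic peptides, stood at 61.7 and 24.9 CPM (0.403, 0.215 to 0.742), and the prostaglandin synthase gene Ptgs1 at 81.5 and 43.6 CPM (0.534, 0.327 to 0.872). Ptgs2, the inducible prostaglandin synthase gene, was higher at 251 and 723 CPM (2.88, 2.35 to 3.55). In WT 1 cell held 46.5% of the Ptgs2 UMIs, and the ratio was 4.16 without the richest cell of each library but 0.630 without cells that held 3 or more markers of another type (2 for neutrophils). That filter kept 37 WT and 42 Gsdme-KO cells with median depths of only 1912 and 2017 UMIs.

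Arterial genes leaned the other way. Of 18 measured, 13 had a ratio above 1, 7 were at least 1.5-fold higher in Gsdme-KO and none was 1.5-fold lower, and the median was 0.54. The median stayed between 0.14 and 0.90 under 14 other ways of choosing or scaling the cells and was 0.66 in low-marker cells. Fbln5 encodes fibulin 5, an elastic fibre protein, and stood at 423 CPM in WT against 701 CPM in Gsdme-KO (1.66, 1.40 to 1.96), with a UMI in 29 and 60 cells. Edn1, the gene of the vasoconstrictor endothelin 1, stood at 432 and 650 CPM (1.5, 1.27 to 1.78), and Cytl1, a secreted cytokine-like protein gene, at 291 and 477 CPM (1.64, 1.34 to 2.01). The Notch ligand gene Jag1 stood at 41.9 and 101 CPM (2.41, 1.45 to 4.20), and Gja5, which encodes the arterial gap junction protein connexin 40, at 44.1 and 92.1 CPM (2.09, 1.26 to 3.62). Single cells weighed heavily in some: 1 WT cell held 85.0% of the Gja5 UMIs and 1 WT cell 53.8% of those of Cytl1. Edn1 was at a ratio of 0.884 without cells with leukocyte markers, and Jag1 at 0.936 without cells with 3 or more markers of another type.
Other arterial genes did not share this: the Notch ligand gene Dll4 stood at 145 and 114 CPM (0.787, 0.568 to 1.10), Notch1 at 223 and 187 CPM (0.839, 0.648 to 1.09), and the transcription factor gene Sox17 at 216 and 194 CPM. Over the 13 Notch pathway genes the median was -0.037, close to that of all genes.

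Venous genes split. Of 9 measured, 3 were lower and 2 higher, with a median of -0.45. Vwf stood at 227 CPM in WT against 136 CPM in Gsdme-KO (0.598, 0.452 to 0.790) although a larger share of Gsdme-KO cells held a UMI of it (30.5% against 22.5%), and its ratio was 1.70 without cells that held any lymphatic marker. Nr2f2, the transcription factor gene of venous identity, stood at 330 and 245 CPM (0.742, 0.597 to 0.924). Selp, the gene of P-selectin, was higher and is given with the adhesion molecules.

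The share of cells carrying each set of markers was compared after thinning every cell to 1000 UMIs, which left out 9 WT and 15 Gsdme-KO shallower cells. At least 2 venous markers were found for 24 of the 71 WT cells (33.8%, 23 to 46) against 17 of 90 in Gsdme-KO (18.9%, 11.4 to 28.5). At least 2 capillary markers were found in 63.4% (51.1 to 74.5) and 52.2% (41.4 to 62.9), and at least 2 arterial markers in 50.7% (38.6 to 62.8) and 60% (49.1 to 70.2). Tip and angiogenic markers were found in 69.0% and 63.3%. The intervals of the 2 libraries overlapped in all 4 sets. Without thinning the venous shares were 66.2% and 56.2%, the capillary shares 72.5% and 61.0%, and the arterial shares 75% and 85.7%. In neutrophil-rich cells thinned alike the shares lay between 0.103% and 3.53%. Markers of several beds met in 1 cell: 28.2% of WT and 28.9% of Gsdme-KO cells held at least 2 arterial and 2 capillary markers, so the sets do not divide the cells into beds.

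**Figure D3:**
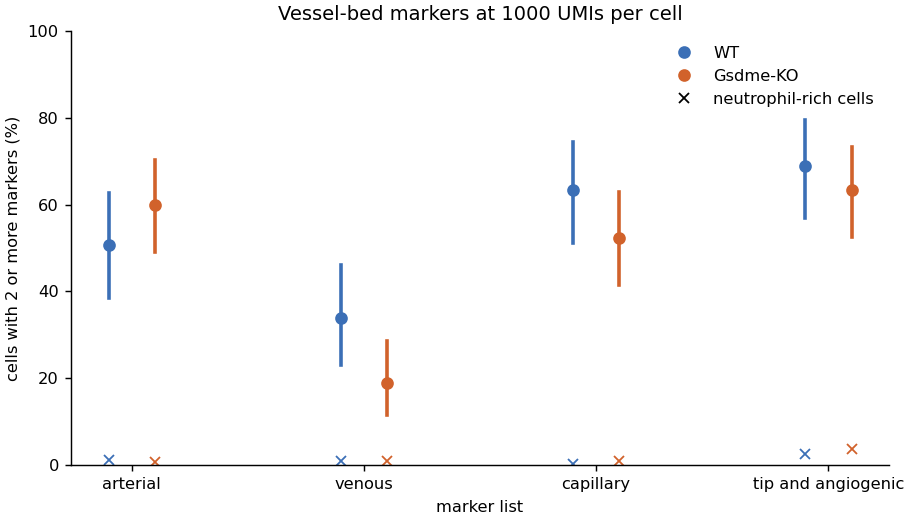
Share of blood vascular endothelial cells with at least 2 arterial, venous, capillary or tip markers after thinning to 1000 UMIs (points; bars are 95% exact binomial intervals; 71 WT and 90 Gsdme-KO cells), with neutrophil-rich cells as background (crosses). The venous share is 33.8% in WT and 18.9% in Gsdme-KO, and the bars of the libraries overlap in all 4 sets.

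Levels were also summed apart for cells with at least 3 capillary markers and for cells with fewer, a split added after the values were seen. At least 3 were detected for 54 of the 80 WT cells (67.5%, 56.1 to 77.6) against 55 of 105 in Gsdme-KO (52.4%, 42.4 to 62.2). These cells had median depths of 4287 UMIs in WT and 7171 in Gsdme-KO, and no cell was thinned for this split. The 26 WT and 50 Gsdme-KO remaining cells had median depths of 4001 and 5037.5 UMIs, and 17 and 23 of them held no capillary marker. Capillary genes themselves differ between these sets by construction.

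Within the capillary-marker cells the lower genes stayed lower. Kdr stood at 608 CPM in WT against 364 CPM in Gsdme-KO (0.599, 0.482 to 0.744), against 49.6 and 34.3 CPM in the cells with fewer markers. Calcrl stood at 355 and 183 CPM (0.516, 0.382 to 0.695), Pparg at 256 and 139 CPM (0.543, 0.382 to 0.769) and Nrp2 at 304 and 205 CPM (0.675, 0.499 to 0.913).

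Single matrix genes differed in how they divided over the 2 sets. Col8a1 (chr16:57624258-57754737), which encodes a short-chain collagen of vessel walls and Descemet's membrane, stood at 262 CPM in WT against 1118 CPM in Gsdme-KO over all the endothelial cells (4.26, 3.52 to 5.21), with a UMI in 21 and 40 cells. In all other kept cells it stood at 115 and 158 CPM (1.38). In the capillary-marker cells it was at 85.4 and 117 CPM (1.37, 0.836 to 2.30), and in the others at 583 and 2412 CPM (4.13, 3.34 to 5.17). In low-marker cells Col8a1 was at 198 and 1850 CPM (9.35), and no other way of choosing or scaling the cells took the ratio below 2.88. Gxylt2, a xylosyltransferase gene that modifies Notch, was divided in the same direction as Col8a1, at 17.1 and 35.3 CPM in capillary-marker cells and 86.9 and 505 CPM in the others (5.82, 3.38 to 10.9).
P4ha3, which encodes a subunit of the enzyme that hydroxylates collagen prolines, had no UMI in any WT endothelial cell and 39 UMIs in 15 Gsdme-KO cells (48.5 CPM), none of them capillary-marker cells. Set against 3 counts for the WT library it was at least 7.34-fold higher. Smoc1, a matricellular protein gene, and Gdf6, a BMP family ligand gene, were also at 0 in WT and had 30 UMIs in 13 cells and 31 UMIs in 7 cells in Gsdme-KO (at least 5.65-fold and 5.84-fold). For Gdf6 1 cell held 48.4%. Ephx2, which encodes soluble epoxide hydrolase, stood at 8.81 and 67.2 CPM (7.63, 2.81 to 29.0), with a UMI in 4 and 20 cells.

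Of 16 basement membrane genes, 2 were higher and 3 lower, with a median of -0.070. The laminin gene Lama5 stood at 41.9 CPM in WT against 80.9 CPM in Gsdme-KO (1.93, 1.14 to 3.41). Col15a1, a collagen gene of the capillary basement membrane zone, stood at 346 and 203 CPM (0.586, 0.468 to 0.735), and the main chain gene Col4a1 at 2388 and 1887 CPM (0.790, 0.730 to 0.855). Both were higher in the cells with 3 or more capillary markers, unlike Col8a1: Col4a1 stood at 2859 and 2235 CPM there against 1533 and 1436 CPM in the cells with fewer (0.937, 0.803 to 1.10), and Col15a1 at 512 and 335 CPM against 43.4 and 31.4 CPM. Genes used as signs of mesenchymal transition had a median of 0.30, with 3 of 14 higher and 1 lower. The 3 were Tagln (2.03), Col1a1 (1.56) and Col1a2 (1.62), which are also on the smooth muscle and fibroblast marker lists whose sums were higher in Gsdme-KO, and their part in the result was not tested. In low-marker cells the list's median was 0.062, but Tagln did not even out there. It stood at 35.2 CPM in WT against 143 CPM in Gsdme-KO (4.08), from 8 and 41 UMIs. Without cells with leukocyte markers the ratio of Tagln was 1.03.

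**Figure D4:**
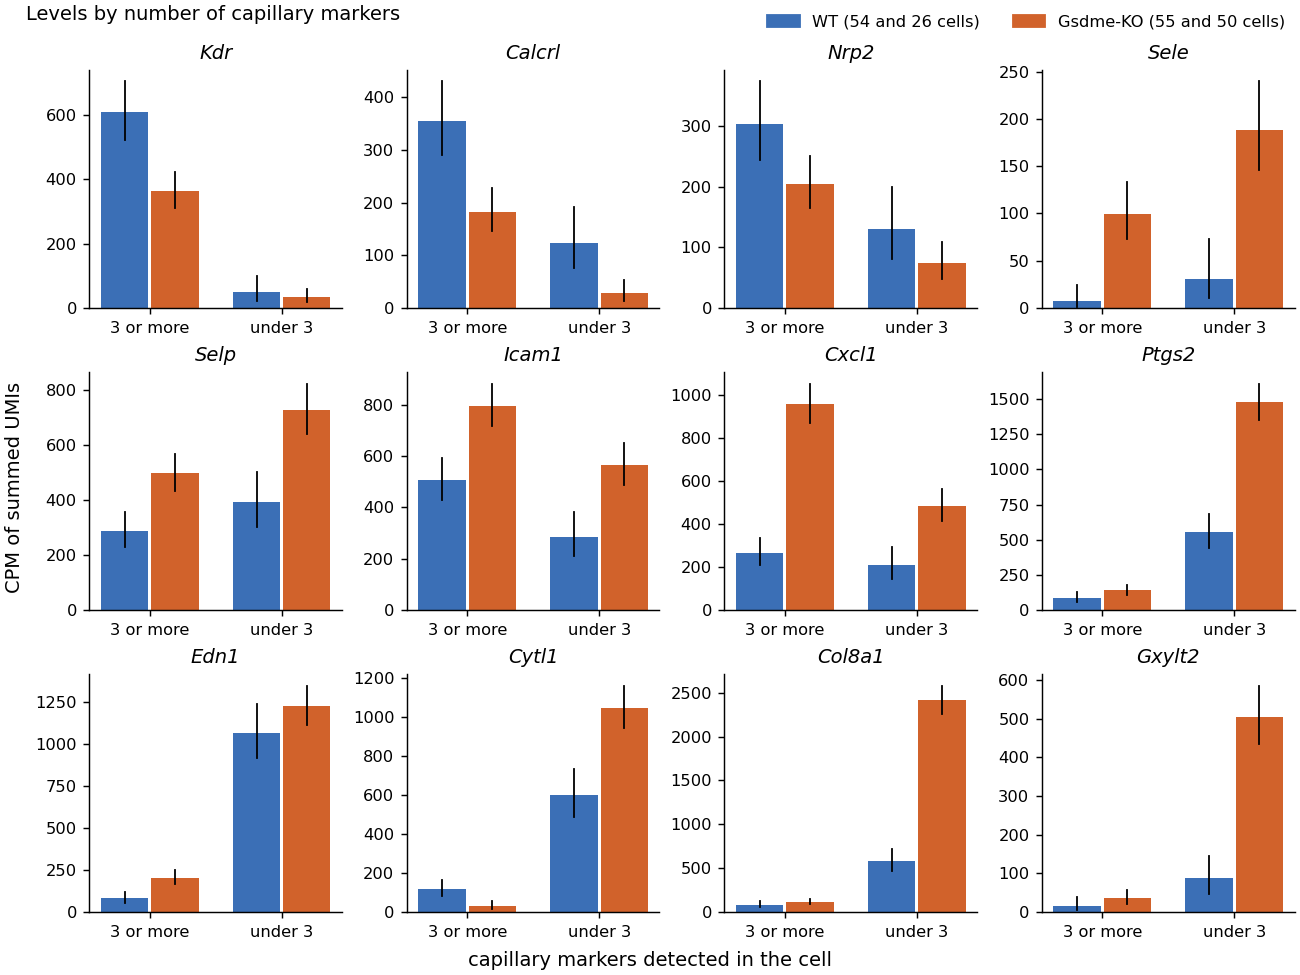
CPM of summed UMIs of 12 genes in endothelial cells with at least 3 capillary markers and in those with fewer (bars from 0; lines are 95% exact Poisson intervals; blue WT, orange Gsdme-KO; each panel has its own axis). Kdr and Calcrl are highest in WT cells with 3 or more capillary markers, and Col8a1 and Gxylt2 are highest in Gsdme-KO cells with fewer.

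Genes of leukocyte capture were higher in Gsdme-KO at the selectins and Icam1 and not across the list. Of 15 adhesion genes, 4 were higher and 2 lower, with a median of 0.090. Sele encodes E-selectin, which cytokine-stimulated endothelium displays to slow neutrophils. It stood at 15.4 CPM in WT (7 UMIs in 4 cells) and 138 CPM in Gsdme-KO (111 UMIs in 16 cells), a ratio of 8.96 (4.21 to 22.8). In Gsdme-KO 1 cell held 40.5% of the UMIs, and without the richest cell of each library the ratio was 7.25. It was 13.1 in low-marker cells, from 2 WT and 33 Gsdme-KO UMIs. Without cells with leukocyte markers it was 3.17, the lowest value of 13 alternatives that gave one. Leaving out cells with 3 or more markers of another type left too few UMIs for a ratio. All other kept cells held 2.73 and 9.52 CPM of Sele (3.48). Both sets of the capillary split were higher in Gsdme-KO, on few WT UMIs. Cells with 3 or more capillary markers held 6.83 and 99.3 CPM (2 UMIs in 1 cell and 45 in 4). Cells with fewer held 31.0 and 188 CPM (5 UMIs in 3 cells and 66 in 12).

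The 250 bases before Sele (chr1:164048234-164057677) are shown because Sele had the highest ratio of the leukocyte-capture genes. They lie at chr1:164047984-164048233 on the plus strand (RefSeq, GRCm38.p6), and capitals mark an ETS core (ACAGGAA) and a TATA box (TATAAA).
Sele: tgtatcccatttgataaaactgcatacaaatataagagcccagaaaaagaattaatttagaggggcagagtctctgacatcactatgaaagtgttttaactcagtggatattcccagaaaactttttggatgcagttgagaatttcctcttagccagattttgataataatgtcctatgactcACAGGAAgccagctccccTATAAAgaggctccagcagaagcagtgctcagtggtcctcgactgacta
ACAGGAA was in 7.05% and TATAAA in 13.0% of the 27025 promoters. Of the 9 identity genes, 5 had a promoter in the table and 3 of those held ACAGGAA. None of 8 promoters of pan-endothelial genes outside the rule held it.

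Selp stood at 324 CPM in WT against 597 CPM in Gsdme-KO (1.84, 1.53 to 2.23). In low-marker cells it stood at 413 and 871 CPM (2.11). The share of cells with a UMI of Selp was not larger in Gsdme-KO, at 26 of 80 WT and 32 of 105 cells. After thinning it was 12 of 71 WT (16.9%) and 10 of 90 Gsdme-KO cells (11.1%), with a ratio of levels of 1.58. Icam1, the gene of the integrin ligand that arrests leukocytes, stood at 427 and 696 CPM (1.63, 1.38 to 1.93), and at 374 and 577 CPM in low-marker cells (1.54). Neither direction held under every filter: without cells with 3 or more markers of another type Selp was at 0.426 and Icam1 at 0.764, and without cells with leukocyte markers Selp was at 0.915. Vcam1, the ligand gene for monocytes and lymphocytes, stood at 227 and 314 CPM (1.38). The laminin-binding integrin gene Itga6 was lower, at 566 and 351 CPM (0.620, 0.522 to 0.737), and the junctional adhesion genes Jam2 and F11r stood at 410 and 285 CPM and at 383 and 270 CPM. Neutrophil markers, whose sum was higher in Gsdme-KO, moved with the selectins, and their part in the result was not tested beyond these filters.

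Chemokines and cytokines were higher in Gsdme-KO when all the cells were summed. Of 16 measured genes, 7 were higher and none lower, and the median was 0.33. Cxcl1, a neutrophil attractant gene, stood at 247 CPM in WT against 752 CPM in Gsdme-KO (3.05, 2.49 to 3.76). Il6 stood at 59.5 and 149 CPM (2.51, 1.64 to 3.97), and Ccl2, a monocyte attractant gene, at 165 and 326 CPM (1.97, 1.52 to 2.59). All other kept cells held more of each: Cxcl1 was at 1128 and 1925 CPM there, Il6 at 244 and 482 CPM, and Ccl2 at 456 and 1324 CPM, with ratios of 1.71, 1.98 and 2.90. Low-marker cells did not show this, with Cxcl1 at 180 and 147 CPM (0.815), Il6 at 0.707, Ccl2 at 1.14 and a list median of -0.25. Sele, at 13.1 in the same cells but with only 2 WT UMIs, did not share this.

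Cxcl1 (chr5:90891241-90893115) is shown beside Kdr and Sele as the cytokine gene with the largest number of UMIs among those that were higher. Capitals in its 250 bases, chr5:90890995-90891244 on the plus strand (RefSeq, GRCm38.p6), mark the NF-kB consensus, matched on both strands, and CACCC. The last 4 bases are exon in GENCODE.
Cxcl1: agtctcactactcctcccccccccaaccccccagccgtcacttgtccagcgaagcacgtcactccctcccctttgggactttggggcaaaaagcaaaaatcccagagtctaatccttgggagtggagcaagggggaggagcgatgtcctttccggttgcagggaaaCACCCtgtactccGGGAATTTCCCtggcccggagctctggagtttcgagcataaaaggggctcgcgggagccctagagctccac
The NF-kB consensus was found in 5 of 13 promoters of the chemokine and cytokine list and in none of 11 of the adhesion list. The search asked for a match at all 10 positions. A promoter without a match, as for Sele, may therefore still hold a variant site. The NF-kB motif was chosen after the values were seen.

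Feedback genes of NF-kB were close to the background except for a pair. Of 13, 2 were higher and none lower, with a median of 0.22 and of -0.11 in low-marker cells. Tnfaip3, which encodes the inhibitor A20, stood at 245 CPM in WT against 434 CPM in Gsdme-KO (1.78, 1.43 to 2.22; 1.44 in low-marker cells), and Tnfaip2 at 200 and 350 CPM (1.74; 0.859 in low-marker cells). Nfkbia, the IkB alpha gene, stood at 1172 and 1366 CPM (1.17). Among 17 immediate early genes only Egr3 passed 1.5-fold, at 63.9 and 193 CPM (3.02, 2.02 to 4.66), and a UMI was found in 15 of 80 and 48 of 105 cells. Egr1 stood at 3719 and 3511 CPM (0.944) and Fos at 4107 and 4713 CPM (1.15). Egr3, which encodes a transcription factor induced by VEGF, was higher in low-marker cells (4.53) and in the capillary-marker cells (285 against 85.4 CPM).

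**Figure D5:**
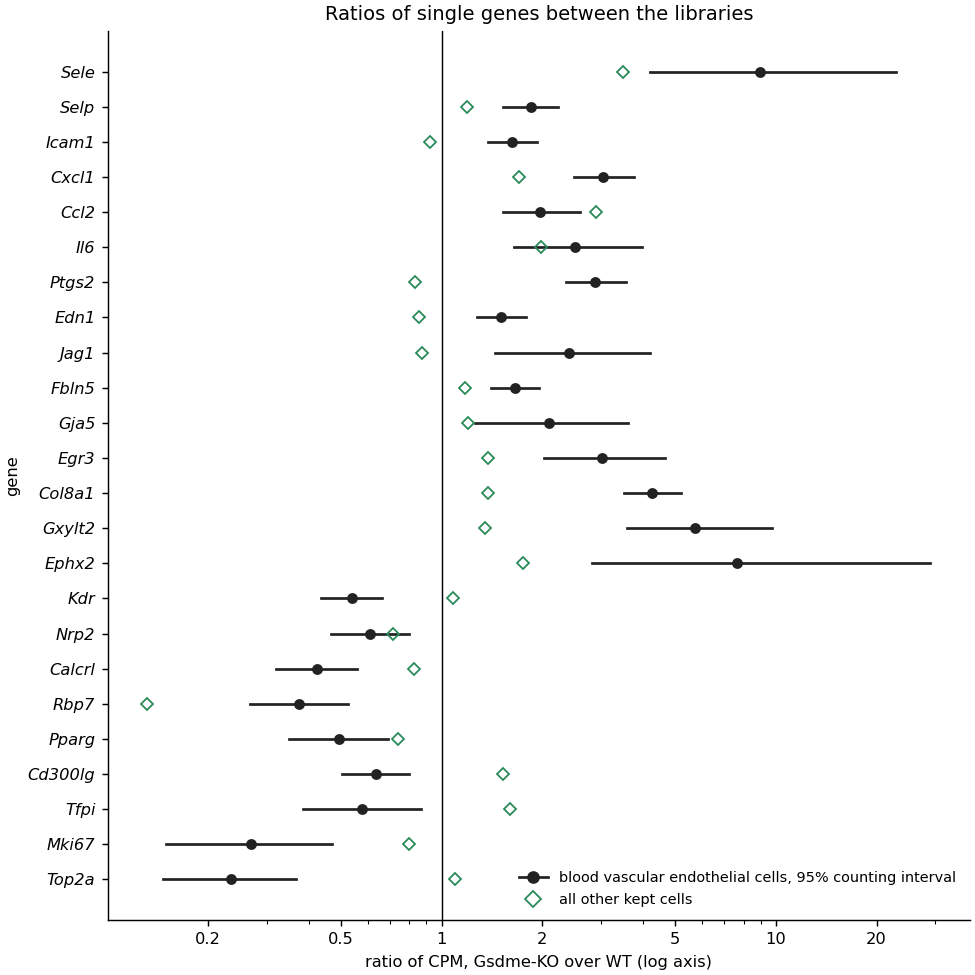
Ratio of CPM, Gsdme-KO over WT, of single genes in blood vascular endothelial cells (black points with 95% counting intervals) and in all other kept cells (green diamonds), on a log axis with a line at 1. Sele, Col8a1, Gxylt2 and Ephx2 lie at 4.26 or above in the endothelial cells, and Kdr, Calcrl, Rbp7 and the cell cycle genes lie under 0.54.

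Of 14 MHC class I genes, which present peptides from inside the cell, 6 were lower and none higher, with a median of -0.36 (-0.60 in low-marker cells). A ratio below 1 was found for 13 of the 14, and B2m was the exception. The heavy chain genes H2-K1 and H2-D1 did not reach 1.5-fold and stood at 2073 CPM in WT against 1656 CPM in Gsdme-KO (0.799, 0.734 to 0.869) and at 2062 against 1562 CPM (0.757, 0.695 to 0.825). The peptide transporter genes Tap1 and Tap2 stood at 72.7 and 34.8 CPM (0.479, 0.279 to 0.818) and at 44.1 and 17.4 CPM (0.395, 0.185 to 0.823). B2m, which encodes the light chain shared by these molecules, was at 2022 and 2707 CPM (1.34, 1.24 to 1.45). The same opposed pair was found in all other kept cells, where B2m had a ratio of 1.23, H2-K1 of 0.830 and H2-D1 of 0.867. Class II genes, which macrophages and dendritic cells also express, had a median of -0.50 over 6 genes, of which 2 were lower and none higher. These 2 responded differently to leaving out marked cells. Cd74, the invariant chain gene, stood at 894 and 503 CPM (0.562), at 92.3 and 90.9 CPM in low-marker cells (0.985), and at a ratio of 1.98 without cells with leukocyte markers. H2-Aa, a class II alpha chain gene, stood at 991 and 614 CPM (0.619, 0.543 to 0.705). It kept a ratio of 0.538 in low-marker cells, from 37 and 25 UMIs, and 0.659 without cells with leukocyte markers. Both genes were nearer to level in other alternatives. After thinning to 1000 UMIs Cd74 was at 0.928 and H2-Aa at 0.861, and by the mean over cells they were at 0.864 and 0.905.

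Proliferation genes were lower in Gsdme-KO. All 13 measured cell cycle genes had a ratio below 1 and 8 were at least 1.5-fold lower, with a median of -0.82. Top2a, a DNA topoisomerase gene of dividing cells, stood at 154 CPM in WT against 36.1 CPM in Gsdme-KO (0.234, 0.146 to 0.366), and Mki67 at 92.5 and 24.9 CPM (0.269, 0.150 to 0.468). Few cells carried them: Top2a had a UMI in 11 cells of each library, and 1 WT cell held 38.6% of it. In low-marker cells Top2a was at 246 and 10.5 CPM (0.043) and Mki67 at 119 and 14 CPM (0.118). Both were nearer to level in alternatives that weight cells more evenly: after thinning to 1000 UMIs Top2a had a ratio of 0.451 and Mki67 of 0.789, and by the mean over cells 0.495 and 0.775, so that Mki67 no longer passed 1.5-fold. In all other kept cells Top2a had a ratio of 1.10. Of the replication genes, Pcna stood at 388 and 314 CPM (0.809), and at 409 and 238 CPM in low-marker cells (0.582). Mcm6 stood at 20.5 and 39.7 CPM in cells with 3 or more capillary markers (1.94, 0.737 to 5.96). In the cells with fewer it was at 180 and 45.7 CPM (0.254, 0.129 to 0.483).

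Genes that handle oxidants had a median of 0.35, with 4 of 14 higher and 2 lower. Gpx1, a glutathione peroxidase gene, stood at 231 CPM in WT against 418 CPM in Gsdme-KO (1.81, 1.45 to 2.27), with a UMI in 44 of 80 and 81 of 105 cells, and in all other kept cells its ratio was 1.61. Hmox1, the haem oxygenase 1 gene, stood at 308 and 503 CPM (1.63), but 1 Gsdme-KO cell held 51.0% of it and the ratio without the richest cells was 1.01. Nox4, an NADPH oxidase gene, stood at 68.3 and 19.9 CPM (0.292, 0.149 to 0.550). Of 17 gasdermin, caspase and apoptosis genes, 1 was higher and 4 lower, with a median of -0.17. Ninj1, whose product ruptures the membrane of dying cells, stood at 44.1 and 19.9 CPM (0.452, 0.219 to 0.918), Ripk1, a death receptor kinase gene, at 72.7 and 114 CPM (1.57, 1.05 to 2.42), and the apoptosis inhibitor gene Bcl2 at 35.3 and 14.9 CPM (0.424, 0.183 to 0.954).

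The coagulation list had no gene 1.5-fold higher and 3 of 13 lower, with a median of 0.041. The lower genes were Vwf, Tfpi, the tissue factor pathway inhibitor gene, at 112 CPM in WT against 64.7 CPM in Gsdme-KO (0.576, 0.384 to 0.865), and the factor VIII gene F8 at 57.3 and 24.9 CPM (0.434, 0.230 to 0.809). The 13 heat shock genes had a median of -0.29, and Hspa1b, an inducible chaperone gene that responds to tissue handling, stood at 615 and 314 CPM (0.510, 0.429 to 0.607). Of 20 type I interferon genes, none was higher and 5 were lower. The median was -0.21, and 0.28 in low-marker cells.

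Some of the genes that differed most by size are known from other cell types or had most of their UMIs in 1 cell. Among the 12 highest, Lcn2, Slpi, Ly6c2, Cd7 and Arg1 are genes of leukocytes or secretory epithelium. They had 0, 5, 0, 0 and 8 UMIs in WT and 28, 97, 90, 27 and 94 UMIs in Gsdme-KO, where 1 cell held 90.4% of Arg1 and 1 cell 75.3% of Slpi. Among the 12 lowest, Retnla, Ccl8, Ccl12, Folr2 and Lyz1 are macrophage genes and Cfd and Car3 adipocyte genes. In WT 1 cell held 92.0% of Cfd and 72.2% of Car3 UMIs lay in 1 cell. Hmga2, a chromatin protein gene, stood at 145 and 14.9 CPM (0.103), with 89.4% in 1 WT cell. Tpm3-rs7, a tropomyosin-related gene whose reads may be shared with Tpm3, stood at 430 and 69.7 CPM (0.162, 0.118 to 0.219) and Nmnat1, an NAD synthesis gene, at 41.9 and 3.73 CPM (0.0892, 0.0169 to 0.303). Both were as low in all other kept cells, with ratios of 0.136 and 0.124. Kazn stood at 70.5 and 7.47 CPM (0.106, 0.0362 to 0.257), with 53.1% in 1 WT cell.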

How the data were processed

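Per the labels' protocols, abdominal aorta was digested with enzymes, freed of red cells and loaded on a BD Rhapsody instrument. The authors deposited each library as whole-number counts per gene and barcode, taken as UMI counts, with no normalisation. CASAVA 1.8, STARsolo and the mm10 build appear in the submitters' processing notes, while the annotation behind the counts and the use of strand are not given in these sources, so overlapping genes may share counts. Depth was 38988898 UMIs over 7736 barcodes in WT and 52532964 over 9034 in Gsdme-KO.

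The cell filter required 500 or more UMIs, 250 or more genes and a mitochondrial share of 25% or less. UMIs were summed per library over the chosen cells and expressed as CPM, with exact Poisson intervals for levels, exact conditional binomial intervals for ratios and Clopper-Pearson intervals for shares, all at the 95% level and covering counting error only. Genes with fewer than 20 UMIs over both libraries were not counted, and a library at 0 was set at 3 counts for a ratio. Cells rich in another type's markers held at least 3 of them and more than of any other type. Of 488 list genes, 484 matched 1 of 31253 features. The members, lists and comparisons were chosen with earlier results of these data known.

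The text names the 12 genes each way whose interval lay farthest from 1, without sex-linked, haemoglobin, mitochondrial, ribosomal and receptor segment genes or unnamed gene models, and with 5% of cells and 10% of the level in the highest other class. It also names the most abundant and most different genes of each list. Promoters are the first entry per symbol in RefSeq's table (GRCm38.p6), and gene positions are from GENCODE M21. Cdh5 and Pecam1 had no entry.

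Tested on simulated counts drawn from these sums with 200 genes changed, intervals held the true ratio in 96.3% of 7729 genes. They lay wholly on the correct side of 1 for 37.3% of 1.5-fold, 73.1% of 2-fold and 97.0% of 4-fold changes. Of unchanged genes 15.4% passed 1.5-fold by counting error alone, and 2.62% did so with an interval on 1 side of 1. The simulated counts held counting error only, which is what the intervals cover, so coverage near their set level was built in. UMIs gathered in 1 cell, as for Arg1, Cfd and Gja5, had no part in the draws. These percentages therefore describe the calculation and not the error rates or power for the real counts. Alternatives were stricter cell limits, thinning, other scaling (TMM from edgeR 4.0.16, median of ratios), the mean over cells, no minimum count and leaving out marked cells. Python 3.11.15 with numpy 2.4.6, scipy 1.17.1 and pandas 2.3.3 was used. 1 gene of the lists is not reported here.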

Additional observations from a re-analysis of the deposited data

Results flagged for a closer look

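For 10 of the named genes the difference ran past 1.5-fold in opposite directions in blood vascular endothelial cells and in all other kept cells. The difference between the 2 ratios was not tested. Cd300lg had a Gsdme-KO over WT ratio of 0.634 in the endothelial cells and 1.52 elsewhere, Tfpi 0.576 and 1.60, and Npr3 0.403 and 1.92. The cystine transporter gene Slc7a11 had 2.16 and 0.614, and its ratio in the endothelial cells was 0.865 without cells with leukocyte markers. Gdf6, at 0 UMIs in the WT endothelial cells and 31 in the Gsdme-KO ones, had a ratio of 0.582 elsewhere, where it stood at 1.17 and 0.681 CPM.

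The other 5 are genes of macrophages, monocytes or adipocytes. Arg1 had 6.64 in the endothelial cells and 0.535 elsewhere, with 90.4% of its Gsdme-KO UMIs in 1 cell and a ratio of 0.836 without the richest cells. Ccl8 had 0.134 and 2.17, Folr2 0.157 and 1.67, Car3 0.0761 and 5.71, and Cfd 0.0656 and 8.22. In WT 1 cell held 78.5% of Ccl8, 72.2% of Car3 and 92.0% of Cfd.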

How the results depend on the processing

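With 1 library per group no replicate could be left out, and no spread between mice stands behind any value. No paired analysis was possible because each group had 1 library. The depth of 80 and 105 cells limits what can be seen, and a 1.5-fold difference in a single gene is often within counting error. The share of these cells kept a ratio between 0.924 and 1.20 in 8 alternatives, within the counting interval of the main value. The 908 higher and 1089 lower genes became 280 and 266 after thinning to 1000 UMIs and 464 and 418 without cells with 3 or more markers of another type, where fewer genes had enough UMIs (1742 and 2703 tested). They became 1940 and 2877 with no minimum count, and the higher genes were 1561 by the mean over cells. TMM factors gave 1174 and 820, and median-of-ratios factors 1146 and 876, with all-gene medians of 0.053 and 0.032 in place of -0.055.

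Single genes turned to the other side of 1 as follows, and the cause was not tested. Thinning gave Bmp4 0.620, Ripk1 0.964 and Vegfa 0.877, and leaving out the richest cell gave Arg1 0.836. Without cells with 3 or more markers of another type the ratios were Ccl8 2.01, Cxcl1 0.674, Icam1 0.764, Itga6 1.06, Jag1 0.936, Ptgs2 0.630, Selp 0.426, Slpi 0.602, Tnfaip2 0.334, Trp53i11 1.34 and Vegfa 0.535. In low-marker cells they were Ccl8 1.75, Cxcl1 0.815, Il6 0.707, Slpi 0.199, Tnfaip2 0.859 and Vegfa 0.605. Without cells with leukocyte markers they were Cd74 1.98, Edn1 0.884, Lcn2 0.604, Selp 0.915, Slc7a11 0.865, Slpi 0.566, Stmn2 0.906, Tnfaip2 0.400 and Vegfa 0.428. Vwf was at 1.70 without cells with a lymphatic marker and at 1.13 by the mean over cells. The filters on cells with other types' markers and the capillary split were added after the data were seen. Kdr stayed between 0.401 and 0.721, Calcrl between 0.321 and 0.624, Col8a1 between 2.88 and 10.1 and Sele between 3.17 and 13.1.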

Other observations

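BMP and TGF-beta genes were close to the background as a list (19 measured, 3 higher and 2 lower, median -0.0064) and held genes that differed in opposite directions. Bmp4, a ligand gene that endothelium makes under disturbed flow, stood at 192 CPM in WT against 304 CPM in Gsdme-KO (1.58, 1.24 to 2.05). It was found mostly in cells with fewer than 3 capillary markers, at 410 and 631 CPM there against 71.7 and 50.7 CPM in the others. Bmp6 stood at 101 and 153 CPM (1.51, 1.07 to 2.17) and passed 1.5-fold in 6 of 14 alternatives. Its ratio was 1.02 with a mitochondrial share of at most 10%, 1.10 by the mean over cells and 2.58 in low-marker cells. Tgfbr1, the type I receptor gene for TGF-beta, was lower at 172 and 85.9 CPM (0.5, 0.356 to 0.700), and its ratio was 0.535 in all other kept cells. The type II receptor gene Tgfbr2 was level, at 353 and 351 CPM (0.996, 0.817 to 1.22).

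Genes of glycolysis and hypoxia had a median of 0.14, with 2 of 15 higher and 1 lower. Bnip3, a mitophagy receptor gene of the hypoxia response, stood at 83.7 and 152 CPM (1.81, 1.25 to 2.68), and the enzyme genes Gapdh and Ldha at 617 and 632 CPM and at 200 and 238 CPM. Junction genes had a median of -0.28, with 2 of 16 higher and 1 lower. The list includes Cldn5 (0.711) and Cdh5 (0.833), which are genes of the rule that chose the cells. Its median was -0.046 in low-marker cells and 0.16 without cells with 3 or more markers of another type. The connexin 43 gene Gja1 was lower, at 242 and 161 CPM (0.662, 0.510 to 0.862), where the connexin 40 gene Gja5 was higher. Flow-responsive genes were near level as a list (median -0.092). The shear-induced transcription factor genes Klf2 and Klf4 stood at 679 and 564 CPM (0.831, 0.717 to 0.963) and at 1481 and 1384 CPM (0.935, 0.849 to 1.03), and the mechanosensitive channel gene Piezo1 at 143 and 93.3 CPM (0.652, 0.461 to 0.923).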
